A study of Salmo salar with 48 samples.

Results

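The chromosome 14 amplicon is a stretch of 416 bp of the Atlantic salmon (Salmo salar) genome whose cytosine methylation was measured in liver. It runs from position 33502562 to position 33502977 of the chromosome 14 reference sequence named in the deposited files, and the name of the genome build is not given in the sources used here. Its members are the 14 CpGs listed between these positions with at least 30 reads, and all 14 passed this minimum in each of 48 fish. They are 14 of the 107 CpGs of 7 amplicons, and they are numbered here CpG1 to CpG14 in order of position. The gene at this place and the bases between the CpGs were not analysed here. The CpGs within the amplicon were taken by position, but the amplicon was chosen with earlier results of these data known.

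A CpG is a cytosine followed by a guanine, and in vertebrates most of these cytosines carry a methyl group, while those of CpG-rich stretches at the starts of many genes are mostly free of it. Bisulfite turns unmethylated cytosine into uracil, which is read as thymine after amplification, and leaves methylated cytosine as it is. The share of reads that still show cytosine is therefore the methylation level. Cytosines that escape conversion count as methylated, so a level near 0 holds an unknown share of unconverted cytosines.

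The study asked how warming, with and without low oxygen, affects the liver methylation of juvenile salmon of the St. John River strain from aquaculture stock. Warm hypoxic (WH) fish were brought to 70% air saturation and then warmed by 1 °C per week to 20 °C. Warm normoxic (WN) fish were warmed in the same steps to 20 °C at 100% air saturation, and control (CT) fish stayed at 12 °C and 100% air saturation. Livers were sampled after 4 weeks and after 3 days at the final temperature, with 8 different fish per treatment and time. The 6 groups are thus WH, WN and CT at 4 weeks and WH, WN and CT at 3 days. WH fish came from tanks T6 and T1, WN fish from tanks T5 and T2, and CT fish from tanks T4 and T3, with 4 fish per tank and time. Because each treatment had its own 2 tanks, a difference between treatments and one between tank pairs cannot be told apart. The permutation p-values below take the fish and not the tank as the unit. In comparisons of treatments, fish of both tanks of a treatment were permuted together, so a difference between its 2 tanks is part of the spread. The 48 fish were 23 males and 25 females, and the share of males ran from 2 of 8 in WH fish at 4 weeks and in CT fish at 3 days to 5 of 8 in 3 of the other groups.

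Each fish had between 1939550 and 4890736 CpG calls over its whole file. In the chromosome 14 amplicon, a CpG was covered by 4272 to 82197 reads in a fish, with a median of 31372, and all calls were on the plus strand. Within a fish, read depth differed by at most 0.986% between the 14 CpGs. The Wilson 95% interval of a single level spanned about ±0.103 percentage points at the median and ±0.696 points at most. PCR reads are not independent molecules, so these intervals cover counting error only. Across the 48 fish, Pearson's r between reads per CpG and the amplicon mean was 0.190 and Spearman's rho was 0.0454, given as a description.

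The amplicon was low in methylation throughout, and its start stood above the rest. The mean of the 14 levels of a fish averaged 1.36% ± 0.458 (SD, n = 48 fish), with a lowest value of 0.688% in a WN fish of 3 days (fish 92), a median of 1.31% and a highest value of 2.90% in a CT fish of 3 days (fish 84). Of the 672 levels, 355 (52.8%) were under 1% and 29 were over 5%. The 29 high values were spread unevenly, as 7 of them lay outside CpG1.

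CpG1, at position 33502562, was the highest CpG of the amplicon, with a mean of 5.03% ± 2.00 (SD, n = 48). Its levels ran from 1.65% in fish 92 to 11.2% in a WH fish of 4 weeks (fish 117). CpG2, 49 bp further on at position 33502611, averaged 2.23% ± 1.52, and CpG3, at position 33502613, averaged 2.22% ± 2.08. CpG4, at position 33502632, averaged 1.26% ± 1.61, and CpG5, at position 33502700, 0.604% ± 0.411. The mean level thus fell over the first 138 bp of the amplicon. CpG1 exceeded CpG2 in 45 of 48 fish, CpG3 exceeded CpG4 in 42 and CpG4 exceeded CpG5 in 33. CpG2 and CpG3 lie 2 bp apart and had no order, since each was the higher one in 24 fish.

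**Figure D1:**
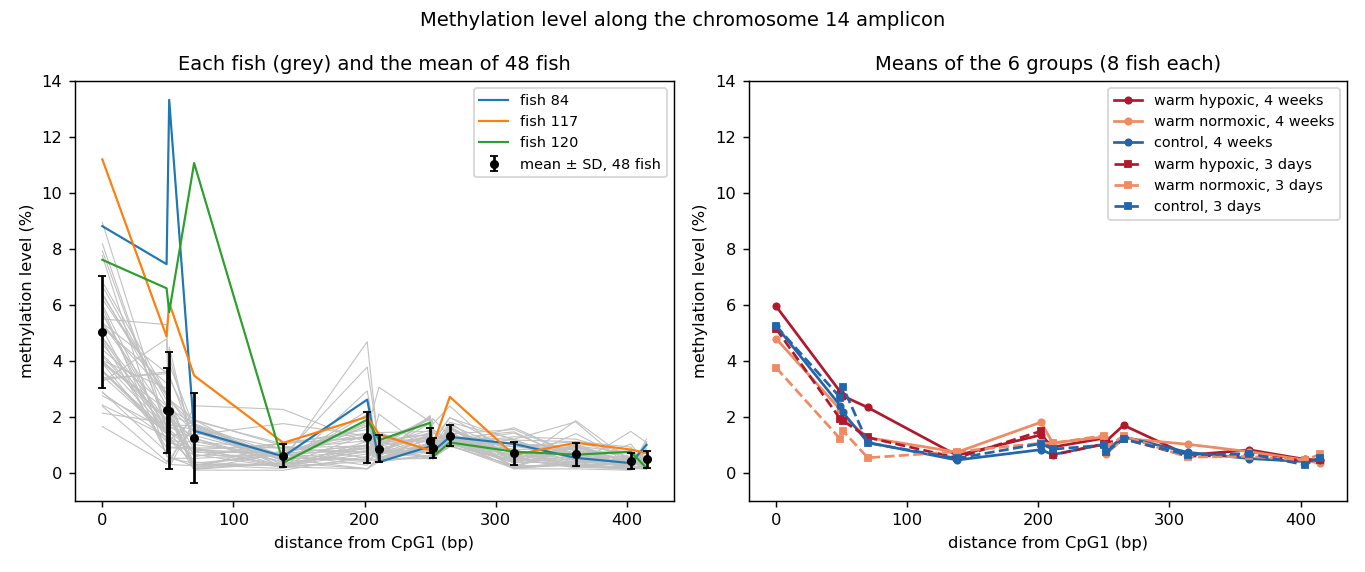
Methylation level (%) of the 14 CpGs against the distance from CpG1 in bp. Left, each grey or coloured line is 1 fish and the black points and bars are the mean ± SD of 48 fish, which drop from 5.03% at CpG1 to 0.604% at CpG5. Right, the means of the 6 groups of 8 fish, each highest at CpG1.

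Beyond CpG5 the level did not go on falling step by step. CpG6, at position 33502764, averaged 1.26% ± 0.896 (SD, n = 48) and exceeded CpG5 in 37 of 48 fish. CpG7 (position 33502773) averaged 0.861% ± 0.478, CpG8 (33502812) 1.15% ± 0.448 and CpG9 (33502814) 0.896% ± 0.356. CpG10, at position 33502827, had a mean of 1.33% ± 0.379 and exceeded CpG9 in 40 fish and CpG11 in 41. The word graded therefore fits CpG1 to CpG5. From CpG6 to CpG10 the means went up and down, with CpG6, CpG8 and CpG10 above CpG7 and CpG9. CpG8 exceeded CpG7 in 36 fish and CpG9 in 34.

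The last 4 CpGs were the lowest together with CpG5. CpG11 (position 33502876) averaged 0.697% ± 0.410, CpG12 (33502923) 0.664% ± 0.408, CpG13 (33502965) 0.418% ± 0.282 and CpG14 (33502977) 0.489% ± 0.307 (SD, n = 48 each). CpG13 had the lowest mean, with values from 0.0931% to 1.48%. The lowest CpG of a fish was CpG14 in 13 fish, CpG13 in 11 and CpG5 in 8. It was CpG11 in 6, CpG4 in 4, CpG12 in 4 and CpG6 in 2. CpG1 was the highest CpG in 43 of 48 fish, and CpG2, CpG3 or CpG4 was the highest in the other 5. Ordered by mean level, CpG10, CpG6, CpG4 and CpG8 each differed from the next by 0.110 points or less. Within fish, CpG10 exceeded CpG6 in 31 of 48 and CpG6 exceeded CpG4 in 27. CpG8 exceeded CpG4 in 28, against the order of their means. The means of CpG11, CpG12 and CpG5 were also this close, as were those of CpG14 and CpG13. CpG11 exceeded CpG12 in 25 fish, CpG12 exceeded CpG5 in 29 and CpG14 exceeded CpG13 in 25.

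Within single fish the level declined with the place of the CpG in the amplicon. Spearman's rho between level and place over the 14 CpGs of a fish was negative in 48 of 48 fish, from -0.855 to -0.0901 with a median of -0.600. It was -0.780 for the CpG means, and -0.491 for the means of CpG5 to CpG14 alone. These values describe the slope, because CpGs of a fish share reads. The flattest profile was that of fish 92, whose CpG1 was also the lowest of the 48.

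The amplicon was next divided into its first 4 and its last 10 CpGs, a division chosen after the values were seen. The first 4 averaged 2.68% ± 1.41 and the last 10 averaged 0.836% ± 0.194 (SD, n = 48), and the first 4 were higher in 48 of 48 fish. In fish 92 the 2 means were nearly equal, at 0.694% and 0.685%. The first 4 held 57.8% of the methylated calls of the amplicon with 28.6% of its reads. The trinucleotides recorded in the files did not order the levels. The 5 CpGs in a CGT context included CpG1 and CpG14 and had means from 0.489% to 5.03%. The 4 in a CGA context had means from 0.418% to 1.33%, the 3 in a CGC context from 1.15% to 2.23% and the 2 in a CGG context from 0.896% to 1.26%.

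At each CpG the levels of the fish spread by more than the counting error of independent reads. PCR reads are not independent molecules, so the ratios below do not measure differences between livers alone. The SD between fish was 5.40 times the SD expected from read counts at CpG10 and 25.0 times at CpG3, and the other CpGs lay between. Relative to the mean, CpG10 varied least between fish (coefficient of variation 28.6%) and CpG4 most (128%). The wide spread at CpG3 and CpG4 came with single fish: CpG3 was 13.3% in fish 84 (Wilson 95% interval 13.1 to 13.6, from 75319 reads) against 6.07% in the next fish. CpG4 was 11.1% in a WH fish of 4 weeks (fish 120; interval 10.8 to 11.3, from 64418 reads) against 3.47% in the next.

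Only 3 fish had an amplicon mean above 2%. Fish 84, a CT female of 3 days from tank T3, had a mean of 2.90%. Fish 120 and 117, a male and a female of WH at 4 weeks from tank T6, had means of 2.87% and 2.70%. The next fish, 118, also of WH at 4 weeks from tank T6, had 1.87%. These 3 fish were high at the start of the amplicon, where CpG1 to CpG4 averaged 7.78% in fish 84, 7.76% in fish 120 and 6.40% in fish 117, against 3.75% in fish 118. Over CpG5 to CpG14 they had 0.948%, 0.919% and 1.22%, within the range of the others. In the other amplicons that could be compared, none of the 3 was among the 6 highest fish. Fish 84 and 120 also had the most calls outside the 7 amplicons (4029 and 2072), while fish 117 had 0. The part of such calls in the high levels was not tested.

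Levels of the first 4 CpGs moved together between fish, and those of the last 10 did so less. Across 48 fish, CpG2 and CpG3 correlated with a Pearson's r of 0.778 and a Spearman's rho of 0.621, and r was 0.634 without fish 84 and 120. CpG8 and CpG9 also lie 2 bp apart, and there r was -0.0841 and rho was -0.133. The 6 pairs of the first 4 CpGs had a median r of 0.460, from 0.337 to 0.778. The 40 pairs of a first and a last CpG had a median r of 0.0391, from -0.171 to 0.350. The 45 pairs among the last 10 had a median of 0.0710, from -0.260 to 0.442. The ranges of the 3 kinds of pairs thus overlapped. Without the 3 fish above 2%, a comparison added with the values known, the median over the first 4 was 0.221 (range 0.0793 to 0.555, n = 45 fish). These correlations are descriptions, since CpGs of a fish share their reads, library and depth.

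**Figure D2:**
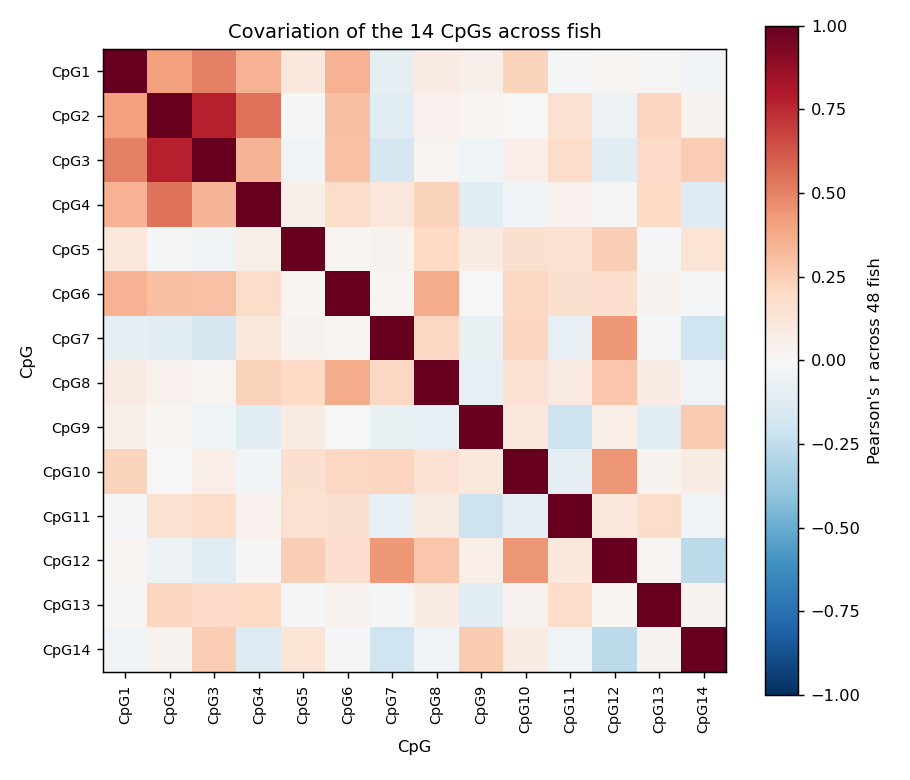
Pearson's r between the levels of each pair of the 14 CpGs across 48 fish, on a scale from -1 (blue) to 1 (red). The 6 pairs of CpG1 to CpG4 form the red block at the upper left, with r from 0.337 to 0.778. Pairs outside this block reach 0.442.

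The mean profile was highest at CpG1 in each of the 6 groups, and the order of the lower CpGs differed most in WN fish of 3 days. Between the mean profiles of 2 groups, Pearson's r over the 14 CpGs ran from 0.896 to 0.982 in the 15 pairs of groups. Spearman's rho was 0.692 to 0.763 in the 5 pairs with WN at 3 days and 0.890 to 0.974 in the other 10. In WN at 3 days CpG2 averaged 1.21% and CpG3 1.499%, and CpG4 averaged 0.537% and CpG5 0.756%, so that the fall from CpG1 to CpG5 was broken there. In CT at 3 days CpG3, at 3.07%, also stood above CpG2, at 2.69%, with fish 84 at 13.3% in CpG3. CpG1 averaged 5.96% ± 2.53 in WH, 4.80% ± 1.16 in WN and 5.25% ± 1.64 in CT fish at 4 weeks (SD, n = 8 each). At 3 days it averaged 5.15% ± 2.11 in WH, 3.76% ± 1.91 in WN and 5.25% ± 2.28 in CT fish. The groups overlapped at CpG1, and no group mean lay outside the range of the fish of any other group.

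The mean of the 14 CpGs had group medians from 1.12% to 1.42%. The largest step between times was in WN by its SE, with 4 weeks 0.286 points (SE 0.107) above 3 days. At 4 weeks the lowest, median and highest fish had 0.831%, 1.37% and 2.87% in WH, 1.18%, 1.42% and 1.66% in WN, and 0.867%, 1.40% and 1.47% in CT. At 3 days they had 0.920%, 1.34% and 1.74% in WH, 0.688%, 1.12% and 1.44% in WN, and 0.768%, 1.26% and 2.90% in CT. The ranges of all groups overlapped, and the high ends of WH at 4 weeks and CT at 3 days were the fish above 2%. A summary over the 14 CpGs is described here and was not tested.

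At 4 weeks the amplicon mean averaged 1.66% ± 0.755 in WH, 1.41% ± 0.171 in WN and 1.29% ± 0.223 in CT fish (SD, n = 8 each). The difference was 0.374 points (SE 0.278) for WH minus CT, 0.118 (SE 0.0992) for WN minus CT and 0.256 (SE 0.274) for WH minus WN. Without tank T6, WH minus CT was -0.0959 and WH minus WN was -0.214, and without tank T1 they were 0.844 and 0.726. Leaving out single fish, WN minus CT was 0.0576 without fish 107 and WH minus WN was 0.0837 without fish 120. With the median over the CpGs of a fish in place of the mean, WN minus CT was 0.268 and WH minus WN was -0.0118. At 3 days the means were 1.31% ± 0.335 in WH, 1.12% ± 0.250 in WN and 1.40% ± 0.634 in CT fish. WH minus CT was then -0.0930 (SE 0.254), WN minus CT -0.277 (SE 0.241) and WH minus WN 0.184 (SE 0.148). Without fish 84, WH minus CT was 0.121 and WN minus CT was -0.0627. Each group enters 2 of these comparisons, so they share fish.

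**Figure D3:**
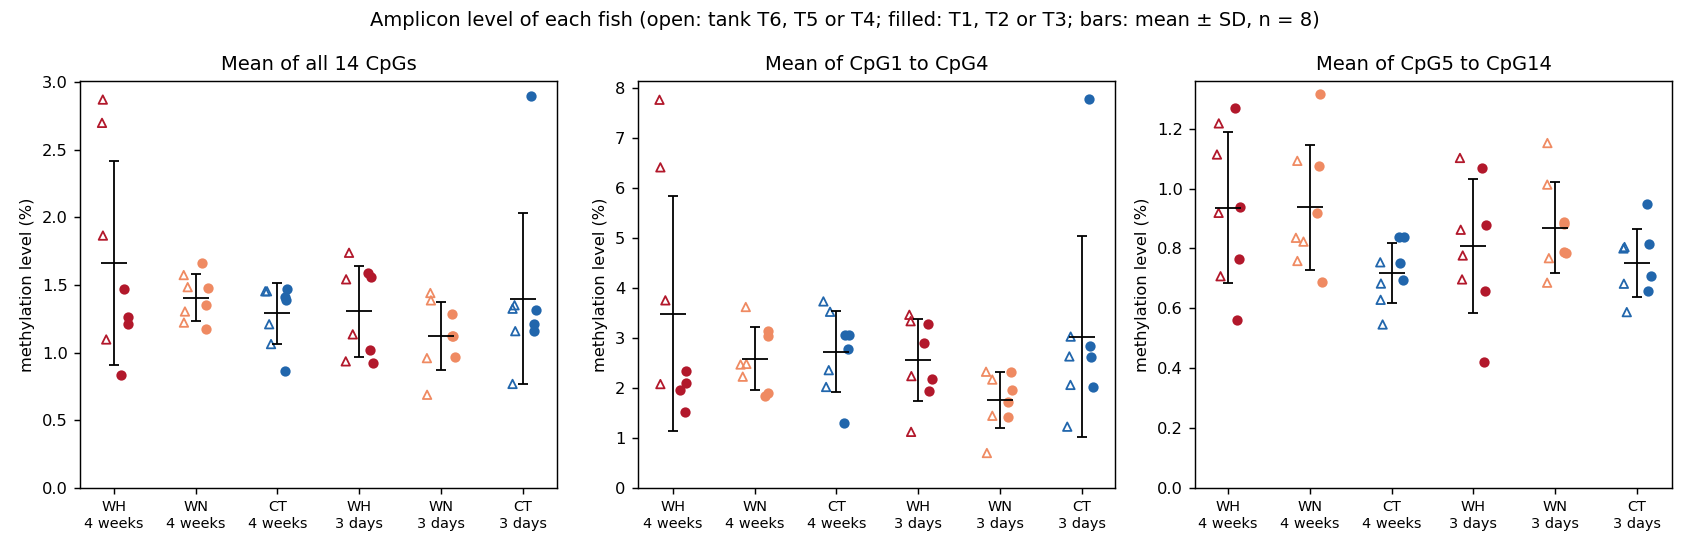
Methylation level (%) of each fish as the mean of all 14 CpGs, of CpG1 to CpG4 and of CpG5 to CpG14, in the 6 groups; open symbols are fish of tanks T6, T5 or T4, filled symbols those of T1, T2 or T3, and bars are the mean ± SD of 8 fish. The fish above 2% in the left panel are 2 WH fish of 4 weeks and 1 CT fish of 3 days.

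Over both times, WN minus CT had opposite signs at the 2 ends of the amplicon. For WH minus CT, the difference over CpG1 to CpG4 was smaller than its SE and changed sign between times. Over CpG5 to CpG14, both warm groups averaged more than CT: at 4 weeks the means were 0.936% ± 0.253 in WH, 0.938% ± 0.209 in WN and 0.716% ± 0.100 in CT fish. The differences from CT were 0.220 points (SE 0.0961) for WH and 0.222 (SE 0.0819) for WN, and 5 WH and 4 WN fish lay above the highest of 8 CT fish. At 3 days the means were 0.808% ± 0.223 in WH, 0.870% ± 0.151 in WN and 0.750% ± 0.114 in CT fish, with differences from CT of 0.0578 (SE 0.0886) and 0.119 (SE 0.0668). Over both times, WN minus CT was 0.171 (SE 0.0528), with 14 of 16 WN fish above the CT mean, and WH minus CT was 0.139 (SE 0.0654), with 11 of 16 WH fish above it. By tank, the means over both times were 0.924% in T6 and 0.820% in T1 of WH, and 0.891% in T5 and 0.917% in T2 of WN. In CT they were 0.685% in T4 and 0.781% in T3. At 3 days alone, T1 of WH, at 0.757%, lay below T3 of CT, at 0.782%. Over CpG1 to CpG4 the WN fish averaged 2.17% ± 0.715 and the CT fish 2.87% ± 1.48 over both times, a difference of -0.705 (SE 0.410). This difference was -1.27 (SE 0.736) at 3 days, where CT fish 84 had 7.78%, and -0.141 (SE 0.361) at 4 weeks. For WH minus CT, CpG1 to CpG4 gave 0.145 (SE 0.582) over both times. The value was 0.760 (SE 0.875) at 4 weeks and -0.470 (SE 0.766) at 3 days. At 4 weeks CpG1 to CpG4 averaged 4.99% in T6 and 1.97% in T1 of WH, against 2.72% in CT fish. No test was made of these sums, because the division followed the values.

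Single CpGs were tested one by one, with p-values adjusted by Benjamini-Hochberg over all CpGs tested in a comparison. In 19 comparisons of treatments, times, sexes and tanks, none of the 14 CpGs had an adjusted p under 0.05 in the permutation tests over fish, and of all CpGs of the series 0.0% did in each of these comparisons. The smallest adjusted p at any of the 14 CpGs was 0.519. In limma, a linear model fitted over all groups, 0 of 14 passed in each comparison without a tank block, and 0.0% of the 94 CpGs tested did. With tank as a random block, 1 of 14 passed for WH minus CT over both times, against 1.06% of the 94 CpGs. The same setting called 4.26% of the 94 CpGs for WN minus CT over both times, and 0 of these 14.

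WN minus CT at 4 weeks was led by CpG6. Its lowest, median and highest levels were 0.855%, 1.46% and 4.68% in WN fish, against 0.147%, 0.852% and 1.68% in CT fish. All 8 WN fish lay above the CT mean, and 3 lay above every CT fish, with the rest overlapping. The difference was 0.981 points (SE 0.462), with an exact permutation p of 0.0132 and a Benjamini-Hochberg adjusted p of 0.584. It was 0.570 without fish 102, the highest WN fish, and 0.497 without tank T2. With an unadjusted p under 0.05, 1 of 14 CpGs passed, against 4.26% of the 94 CpGs tested, and 8 of the 14 were higher in WN, with a median difference of 0.116 points (0.0342 over all 94).

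WH minus CT at 4 weeks had no CpG with an unadjusted p under 0.05, against 2.13% of the 94 CpGs. The smallest p was that of CpG7, where the lowest, median and highest levels were 0.560%, 0.848% and 1.37% in WH fish and 0.447%, 0.503% and 1.45% in CT fish. The groups overlapped over the whole WH range, though 7 of 8 WH fish lay above the CT mean. The top of the CT range was fish 107 alone, as the next CT fish had 0.711%. The difference was 0.270 points (SE 0.152), with an exact permutation p of 0.0996 and an adjusted p of 0.866, and it was 0.127 without tank T4. Of the 14 CpGs, 12 were higher in WH, with a median difference of 0.319 points, while over all 94 CpGs 42.6% were higher and the median was -0.0501. The 2 WH tanks were not alike in this. The mean over the 14 CpGs was 2.13% in T6 and 1.19% in T1, against 1.29% in CT fish, and WH minus CT was -0.0959 points without T6. The largest single difference was 1.25 points at CpG4, where fish 120 stood at 11.1% and the WH median was 0.798% against 1.14% in CT.

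WH minus WN at 4 weeks had 2 of 14 CpGs with an unadjusted p under 0.05, against 3.19% of the 94 CpGs. At CpG9 the lowest, median and highest levels were 0.572%, 1.03% and 1.94% in WH fish and 0.540%, 0.643% and 1.01% in WN fish. The ranges overlapped, and 5 of 8 WH fish lay above every WN fish. The difference was 0.457 points (SE 0.177; exact permutation p = 0.0135, adjusted p = 0.774). CpG11 went the other way, with 0.314%, 0.598% and 1.17% in WH fish and 0.506%, 1.07% and 1.55% in WN fish. Its difference was -0.387 points (SE 0.156; exact permutation p = 0.0284, adjusted p = 0.891), with 3 WH fish below every WN fish, and it was -0.239 without tank T1.

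**Figure D4:**
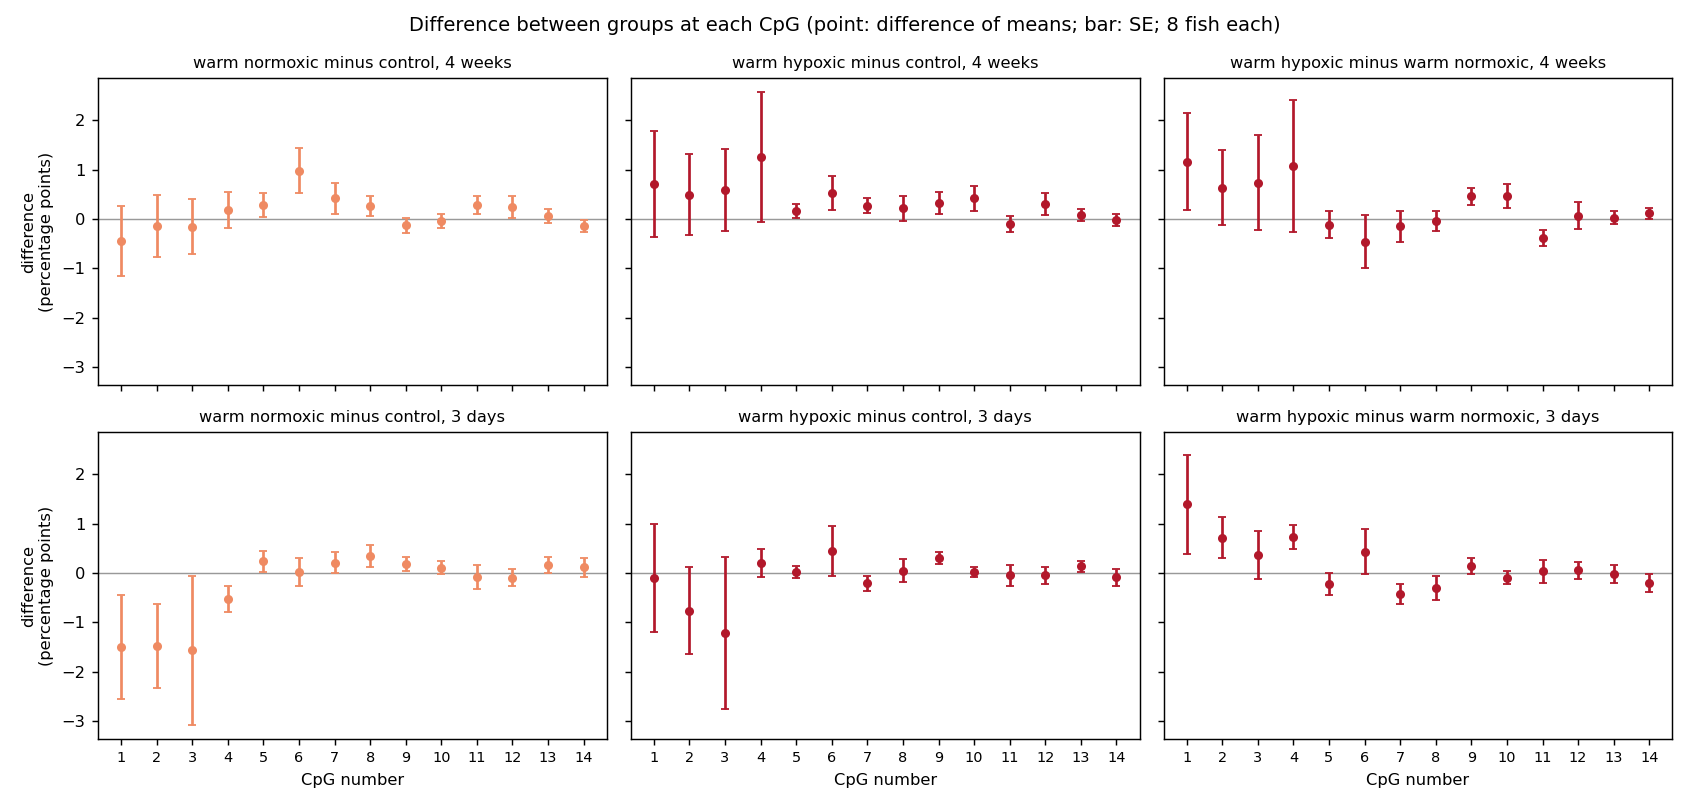
Difference between group means (percentage points) at each of the 14 CpGs, for the 3 pairs of treatments at 4 weeks (top) and at 3 days (bottom); points are differences, bars are SE, 8 fish per group. The widest bars lie at CpG1 to CpG4, such as CpG4 at 4 weeks, where WH minus CT was 1.25 points.

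At 3 days, WN minus CT had no CpG of the amplicon with an unadjusted p under 0.05, against 7.45% of the 94 CpGs. CpG4 came first, with a lowest, median and highest level of 0.0964%, 0.459% and 1.35% in WN fish against 0.284%, 1.18% and 1.72% in CT fish. The groups overlapped, with 3 of 8 WN fish below every CT fish. The difference was -0.529 points (SE 0.261), with an exact permutation p of 0.0643 and an adjusted p of 0.564. CpG1, CpG2 and CpG3 were also lower in WN on average, by up to 1.57 points at CpG3, where the CT mean includes fish 84.

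WH minus CT at 3 days had 1 of 14 CpGs with an unadjusted p under 0.05, against 7.45% of the 94 CpGs. This was CpG9, with 0.608%, 1.11% and 1.54% as the lowest, median and highest level in WH fish and 0.489%, 0.785% and 1.03% in CT fish. The ranges overlapped, and 5 of 8 WH fish lay above every CT fish. The difference was 0.312 points (SE 0.122; exact permutation p = 0.0221, adjusted p = 0.519), and 0.177 without tank T1. In direction the 14 CpGs were split evenly, with 7 higher in WH, against 42.6% of all 94.

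WH minus WN at 3 days had 2 of 14 CpGs with an unadjusted p under 0.05, against 5.32% of the 94 CpGs. CpG4 ran over 0.257%, 1.28% and 1.90% (lowest, median, highest) in WH fish and over 0.0964%, 0.459% and 1.35% in WN fish. The groups overlapped, with 7 of 8 WH fish above the WN mean. Its difference was 0.726 points (SE 0.239; exact permutation p = 0.0115, adjusted p = 0.721). CpG7 was lower in WH, with 0.396%, 0.562% and 1.01% in WH fish and 0.424%, 0.887% and 2.10% in WN fish. Its difference was -0.417 points (SE 0.203; exact permutation p = 0.0472, adjusted p = 0.721), with every WH fish below the WN mean, and it was -0.268 without fish 89.

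CpG9 was the CpG of the amplicon with the smallest p in both comparisons of WH over both times. Its lowest, median and highest levels were 0.572%, 1.05% and 1.94% in 16 WH fish, 0.483%, 0.678% and 1.55% in 16 WN fish and 0.489%, 0.700% and 1.48% in 16 CT fish. WH reached higher and overlapped both other treatments, with 13 of 16 WH fish above the CT mean and 13 above the WN mean. WH minus CT was 0.320 points (SE 0.126), with a permutation p within times of 0.0144 and an adjusted p of 0.757. WH minus WN was 0.296 points (SE 0.120), with a permutation p of 0.0210 and an adjusted p of 0.679 over 107 CpGs. Over both times 1 of 14 CpGs had an unadjusted p under 0.05 in each, against 2.13% of 94 CpGs for WH minus CT and 1.87% of 107 for WH minus WN.

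In limma with tank as a random block, the adjusted p of CpG9 was 0.0428 for WH minus CT and 0.0664 for WH minus WN, and without the block it was 0.702 for WH minus CT. CpG9 was the 1 of the 94 CpGs called for WH minus CT in that setting. The estimated correlation of fish within a tank was -0.0627 in this model, so that the call came with a negative correlation. This value was a consensus over the 94 CpGs and not an estimate for CpG9. The unadjusted limma p of CpG9 for WH minus CT was 0.000456 with the block and 0.00746 without it. The block thus made this comparison less strict. By tank, CpG9 averaged 1.03% ± 0.427 in T6 and 1.17% ± 0.342 in T1 of WH, 0.873% ± 0.351 in T5 and 0.738% ± 0.237 in T2 of WN, and 0.751% ± 0.348 in T4 and 0.812% ± 0.285 in T3 of CT (SD, n = 8 fish each). Over both times, both WH tanks thus had higher means than the other 4 tanks, with overlapping fish. At 3 days alone this order did not hold, as CpG9 averaged 0.927% in T6 of WH and 1.04% in T5 of WN.

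**Figure D5:**
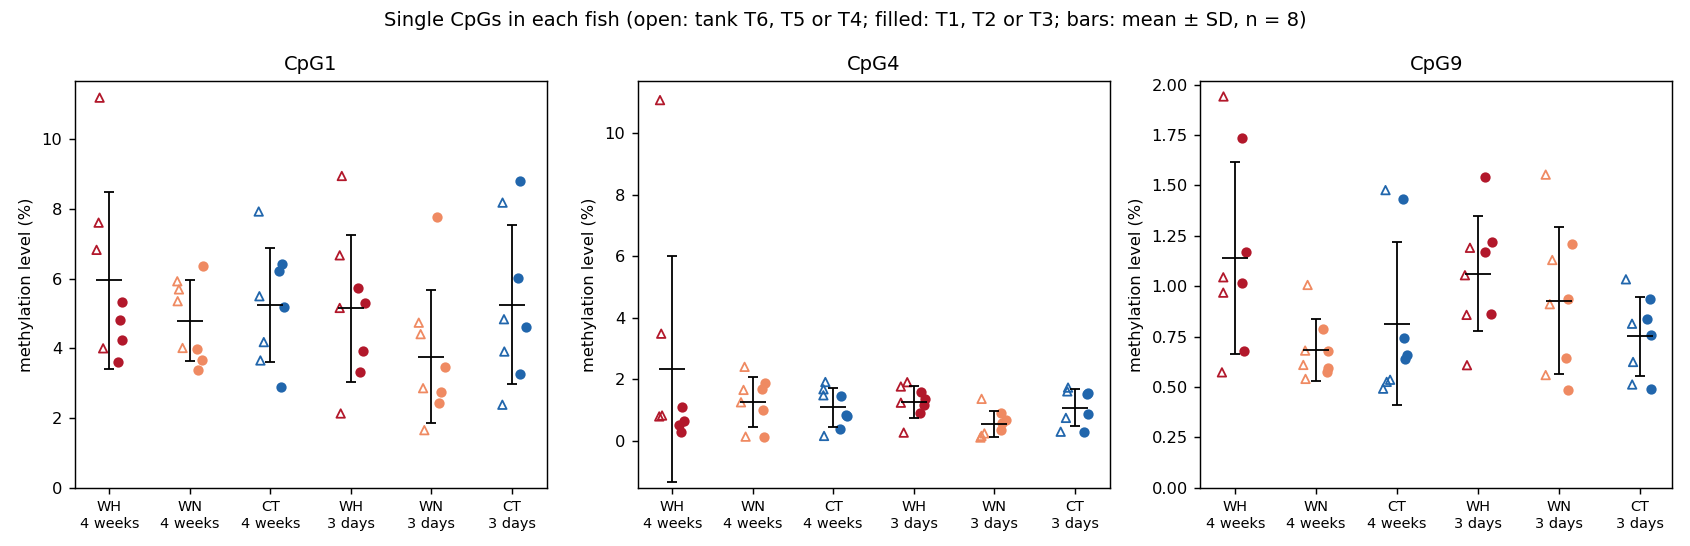
Methylation level (%) of CpG1, CpG4 and CpG9 in each fish of the 6 groups; open symbols are fish of tanks T6, T5 or T4, filled symbols those of T1, T2 or T3, and bars are the mean ± SD of 8 fish. At CpG4, 1 WH fish of 4 weeks stands at 11.1%, and at CpG9 the WH fish reach 1.94% at 4 weeks.

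WN minus CT over both times was led by CpG8. Its lowest, median and highest levels were 0.551%, 1.34% and 1.94% in 16 WN fish and 0.478%, 0.986% and 2.05% in 16 CT fish. The ranges were nearly the same, while 14 of 16 WN fish lay above the CT mean. The difference was 0.303 points (SE 0.149; permutation p within times = 0.0477, adjusted p = 0.538), and 0.192 without tank T3. With an unadjusted p under 0.05, 1 of 14 CpGs passed, against 8.51% of the 94 CpGs.

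In WN, fish of 4 weeks and of 3 days differed most at CpG2. It had a lowest, median and highest level of 0.638%, 2.14% and 3.57% in WN fish of 4 weeks and of 0.327%, 1.28% and 2.39% in those of 3 days. The ranges overlapped, with 4 of 8 fish of 4 weeks above all of 3 days. The difference was 1.05 points (SE 0.448; exact permutation p = 0.0361, adjusted p = 0.840). CpG4 also had an unadjusted p under 0.05 there, with a difference of 0.723 points (exact permutation p = 0.0446, adjusted p = 0.840). These were 2 of 14 CpGs, against 3.19% of 94. The amplicon mean was 0.286 points (SE 0.107) higher at 4 weeks, and 8 of 8 WN fish of 4 weeks lay above the mean of 3 days.

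In WH, 4 weeks minus 3 days had 1 of 14 CpGs with an unadjusted p under 0.05, against 7.45% of 94. CpG7 had levels of 0.560%, 0.848% and 1.37% at 4 weeks and of 0.396%, 0.562% and 1.01% at 3 days (lowest, median, highest), so that the groups overlapped. Its difference was 0.285 points (SE 0.129; exact permutation p = 0.0465, adjusted p = 0.557), and 0.169 without tank T6. The amplicon mean of WH was 0.358 points (SE 0.292) higher at 4 weeks, but -0.0798 without tank T6. In CT, where temperature stayed constant, none of 14 CpGs had an unadjusted p under 0.05, against 3.19% of 94. The smallest p there was 0.264 at CpG13 (exact permutation test, adjusted p = 0.924), with levels of 0.118%, 0.352% and 0.755% at 4 weeks and 0.158%, 0.277% and 0.459% at 3 days. The amplicon mean of CT differed by -0.109 points (SE 0.237) between 4 weeks and 3 days, and by 0.105 without fish 84.

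Whether a treatment difference itself differed between 4 weeks and 3 days was tested by permuting residuals. For WN minus CT the smallest p was that of CpG6, whose difference was 0.966 points larger at 4 weeks (SE 0.544; permutation p = 0.0642, adjusted p = 0.870) and 0.556 points larger without fish 102; 0 of 14 CpGs had an unadjusted p under 0.05, against 2.13% of 94. For WH minus CT, CpG7 changed by 0.478 points (SE 0.212; permutation p = 0.02755, adjusted p = 0.612), 1 of 14 CpGs against 5.32% of 94. Without fish 107 the change at CpG7 was 0.593 points (permutation p = 0.00275, adjusted p = 0.128). For WH minus WN, CpG10 changed by 0.565 points (SE 0.282; permutation p = 0.0457, adjusted p = 0.760), 1 of 14 against 3.19%. CpG10 had means of 1.70% ± 0.648 in WH and 1.23% ± 0.274 in WN fish at 4 weeks, and 1.22% ± 0.204 in WH and 1.32% ± 0.311 in WN fish at 3 days (SD, n = 8 each). Its highest fish were fish 117 and 97, both WH at 4 weeks, with 2.72% and 2.39%.

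Males and females had much the same levels. The amplicon mean was 1.34% ± 0.417 in 23 males and 1.38% ± 0.501 in 25 females, with ranges of 0.688% to 2.87% in males and 0.768% to 2.90% in females that nearly coincided. Adjusted for group, males minus females was 0.0255 points (SE 0.132), but -0.0766 without fish 120, -0.0965 without tank T6 and -0.0501 with the median over CpGs. The smallest p was at CpG14, where the lowest, median and highest levels were 0.133%, 0.363% and 1.05% in males and 0.133%, 0.455% and 1.21% in females. The adjusted difference was -0.107 points (SE 0.0820), with a permutation p within groups of 0.260 and an adjusted p of 0.996. No CpG of the amplicon had an unadjusted p under 0.05, against 4.67% of the 107 CpGs.

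Between tanks of the same treatment, the mean over CpGs differed most in WH. At 4 weeks the amplicon mean was 2.13% ± 0.819 in tank T6 and 1.19% ± 0.266 in tank T1 (SD, n = 4 each). At 3 days it was 1.34% ± 0.368 in T6 and 1.27% ± 0.353 in T1. Over both times T6 was 0.502 points (SE 0.250) above T1, and 13 of 14 CpGs were higher in T6, against 66.0% of the 94 CpGs. With the median over CpGs, T6 minus T1 was 0.0557 points, smaller in size than T4 minus T3 in CT at -0.127. CpG1 had a lowest, median and highest level of 2.13%, 6.75% and 11.2% in T6 and of 3.32%, 4.53% and 5.74% in T1. The T6 fish covered the whole T1 range, and 5 of 8 lay above it. The difference at CpG1 was 2.03 points (SE 1.08), with an exact permutation p within times of 0.0780 and an adjusted p of 0.992. None of 14 CpGs had an unadjusted p under 0.05, against 1.06% of 94. Tank T6 held 2 males and 6 females and tank T1 held 5 males and 3 females, and the part of sex in the difference was not tested.

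The tanks of WN and CT were closer. In WN the amplicon mean was 1.26% ± 0.297 in T5 and 1.27% ± 0.224 in T2, and in CT it was 1.22% ± 0.230 in T4 and 1.47% ± 0.610 in T3 (SD, n = 8 each). T4 minus T3 was -0.242 points (SE 0.236), and -0.0303 without fish 84. The smallest p was at CpG12 in both treatments. CpG12 averaged 0.817% ± 0.274 in T5 and 0.522% ± 0.543 in T2, a difference of 0.295 points (SE 0.214; exact permutation p = 0.199, adjusted p = 0.993), and of 0.481 without fish 103 (exact permutation p = 0.00286, adjusted p = 0.269). It averaged 0.473% ± 0.241 in T4 and 0.717% ± 0.377 in T3, a difference of -0.244 points (SE 0.161; exact permutation p = 0.145, adjusted p = 0.993), and of -0.152 without fish 83. No CpG of the amplicon passed an unadjusted p of 0.05 in either, against 5.32% of 94 in WN and 2.13% in CT.

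Among the amplicons with levels of a few percent or less and enough reads in every fish, the chromosome 14 amplicon was the highest. Its mean of 1.36% compared with 0.692% ± 0.149 on chromosome 3 (13688232 to 13688647), 0.505% ± 0.140 on chromosome 4 (44947109 to 44947524) and 0.539% ± 0.0541 on chromosome 16 (37941696 to 37942102; SD, n = 48 each). It was higher than the amplicon on chromosome 3 in 45 of 48 fish, and higher than those on chromosomes 4 and 16 in 48 of 48. Its first CpG stood at 5.03% against a mean of 1.08% over the other 13, while the first CpG and the rest had 0.772% and 0.687% on chromosome 3, 0.692% and 0.491% on chromosome 4 and 0.498% and 0.541% on chromosome 16. Between fish, its mean had a coefficient of variation of 33.6%, against 21.5%, 27.8% and 10.0%. Depth differed between these amplicons, and the one on chromosome 3 had a median of 436 reads per CpG, below every value on chromosome 14. The highest CpG mean was 1.64% on chromosome 3, 0.762% on chromosome 4 and 1.14% on chromosome 16, each above the mean of its amplicon. Another low amplicon, on chromosome 15 (46698401 to 46698820), was left out of this ranking for its depth, a median of 18.5 reads per CpG. In the 21 fish compared, it averaged 1.88% ± 0.790 (SD), with a coefficient of variation of 42.1%. Its highest CpG mean was 6.59%, and chromosome 14 was the higher one in 7 of these fish. The difference between amplicons was not tested.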

How the data were processed

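Liver DNA of 48 fish was bisulfite-converted, amplified, indexed and sequenced on an Illumina MiSeq, per the labels' protocols. Bismark 0.20.0 and Bowtie2, with Trim Galore 0.4.4 and MultiQC 1.9, are the tools listed per the submitters' processing notes. Neither their settings nor the genome build nor a conversion rate was given. Each deposited file holds, per the file headers, whole-number counts of methylated and unmethylated calls per CpG and strand, without normalization.

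A level is 100 times the methylated counts over all counts, for CpGs with at least 30 reads. CpGs with calls in every fish and less than 1000 bp apart formed the 7 amplicons. Groups, sex and tank came from the labels. Each CpG of the whole table that had 30 reads in 6 or more fish on both sides (94 or 107 CpGs) was tested two-sided by permuting fish: all 12870 splits of 16 fish (smallest p 0.000155), 4900 splits within times for tanks (smallest p 0.000408), and 100000 resamples elsewhere, stratified by time for pooled treatments and by group for sex. P-values were adjusted by Benjamini-Hochberg within a comparison, with a threshold of 0.05. SE come from the variances of the groups. Fish of the same group are replicates per the labels. Software was Python 3.11.15 with numpy 2.4.6, pandas 2.3.3, scipy 1.17.1, statsmodels 0.14.6 and matplotlib 3.10.9, and R 4.3.3 with limma 3.58.1. The tests were also run on simulated counts, in which each CpG of each fish was drawn independently and without tank effects. Those runs therefore do not cover tank differences or CpGs that move together.

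Alternatives were minimums of 10 and 100 reads, coverage-weighted levels, limma on log2((methylated + 1) / (unmethylated + 1)) alone or adding a random tank effect, permuting within sex or tank, the median over CpGs, no CpG1, and leaving out each tank, each fish, or the 3 fish with most calls outside the amplicons. The covariation without the 3 fish above 2% was added after the data were seen. The text gives full values for the CpG with the smallest p of each comparison and, between treatments, for up to 3 with an unadjusted p under 0.05. The members, lists and tests were chosen with earlier results of these data known. Gene positions of a different assembly were not used.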

Additional observations from a re-analysis of the deposited data

Results flagged for a closer look

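In each of 90 sets of 8 fish (14 CpGs and the amplicon mean in 6 groups), the highest and the lowest fish were compared with their nearest neighbour, and a gap of more than 0.526 of the whole range marked a fish as standing apart. This happened in 13 sets. The limit gives about 1 in 20 by chance for independent, normally distributed values, while these levels are near 0 and the sets share fish, so the chance rate here is not known. All 13 were highest fish, and 3 of them were fish 84. In CT fish of 3 days, fish 84 stood apart at CpG3 with 13.3% (next fish 2.69%), at CpG6 with 2.62% (next 1.32%) and in the amplicon mean with 2.90% (next 1.35%), and fish 87 stood apart at CpG8 with 1.90%. In WH fish of 4 weeks, fish 120 stood apart at CpG4 with 11.1% (next 3.47%). In WN fish of 4 weeks, fish 114 was apart at CpG5 with 2.27%, fish 102 at CpG6 with 4.68% (next 2.08%), and fish 103 at CpG7 with 3.06% and at CpG8 with 1.83%. In CT fish of 4 weeks, fish 107 was apart at CpG7 with 1.45% and fish 105 at CpG14 with 1.05%. Fish 94 was apart at CpG10 with 1.67% among WH fish of 3 days, and fish 78 at CpG13 with 1.48% among WN fish of 3 days.

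Calls on chromosome 14 outside the amplicon, which no comparison used, were present in 3 fish. WN fish 101 had 60 such methylated calls, the most of the 3, and WH fish 118 had 35, against 56 in CT fish 84.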

How the results depend on the processing

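For CpG differences with full values, all 611 alternative values had the same direction and side of the threshold, and their smallest adjusted p was 0.128 (permutation tests). Counts of CpGs past the threshold were the same in 118 settings and differed in 1: limma with the tank block called 1 CpG (CpG9) for WH minus CT over both times, against 0 in the permutation test. The coverage-weighted test was not run for the changes of treatment differences between times. Differences in the amplicon mean moved by less than the pooled SD of the fish compared in all 605 alternatives. This limit is wide beside most of the differences, so a difference can change sign within it. In most of the 19 comparisons, some alternative did change the sign of the difference. With the median over CpGs, WN minus CT at 3 days was 0.0608, against -0.277 with the mean. Without tank T6, WH minus CT over both times was -0.111, against 0.392 without tank T1. Without fish 120, WH minus CT at 4 weeks was 0.202. No paired analysis was possible because fish numbers are not shared between groups. Each treatment had 8 fish per time in 2 tanks. Levels near 0 are limited by the unknown conversion rate.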
